A study of Mus musculus with 12 samples.

Results

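The genes of glucose use were followed in mouse immortalized tumor-initiating cells (iTICs). They were those of glucose transport, glycolysis, lactate, the entry of pyruvate into mitochondrial oxidation, and glycogen. A list of 35 genes was taken by name, and each gene was read as 1 profile over all arrays. Of the 35 genes, 28 were measured, among 10365 measured genes in all. Hk2, Gpi1 and Eno1 had no named probe here, and Ldhb, Slc16a1, Pgm2 and Gbe1 had a named probe that was detected on at most 2 of the 12 arrays. Of the 28 measured genes, 25 were detected on all 12 arrays. The exceptions were Pfkfb3 and Gys1, each detected on 4 arrays, and Pdk2, detected on 7.

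The cells, studied in the series as tumor-initiating breast cancer cells, were profiled on 1-colour Illumina Mouse WG-6 v2.0 BeadChips. Normoxic standard conditions were a DMEM-based medium at 21% oxygen, with 1 array for each of days 1 to 6 after transfer and 3 arrays for day 7. Hypoxic stem cell conditions, from which the cells were moved, were an MEBM-based mammary stem cell medium free of serum, at 3% oxygen and with 2% Cultrex, which is an extract of basement membrane, and had 3 arrays. All groups are iTICs. Medium and oxygen changed together, and Cultrex is given for hypoxic culture only, so that the effects of all these cannot be told apart. Since no label states separate cultures for the replicates, the p-values cover the variation among these samples only, and that variation may be technical.

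Glycolysis splits glucose into pyruvate in the cytosol. Pyruvate is then either reduced to lactate and exported, or turned into acetyl-CoA inside the mitochondrion by the pyruvate dehydrogenase complex. Pyruvate dehydrogenase kinases switch that complex off. Glycogen is the stored form of glucose, built by glycogen synthase and opened by glycogen phosphorylase. Hypoxia-inducible factor (HIF) is a pair of Hif1a or Epas1 with Arnt. Its Hif1a or Epas1 part is broken down when oxygen is plentiful. The pair is known to activate many genes of glycolysis through short DNA motifs with the core ACGTG or GCGTG.

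Between 34.3% and 37.7% of 45281 probes were detected per array. Arrays are named as in the deposited signal table; the authors' processed table gives conflicting names. Both deposited tables keep the arrays in the same 2 sets of 6, which no label names: set a holds days 4 to 6, day 7 replicates 2 and 3 and hypoxic replicate 3, and set b holds days 1 to 3, day 7 replicate 1 and hypoxic replicates 1 and 2. Days 1 to 3 against days 4 to 6 and set b against set a therefore cannot be told apart. All 9 mammary epithelial markers examined were detected on every array, and their summed linear signal was 36900 to 38410 on day 7 and 51120 to 52860 in hypoxic culture. Over all normoxic arrays that sum ran from 36900 to 70180, so it passed the hypoxic range on both sides. On day 7, 5 of these markers fell and 0 rose, where 33.7% of all genes fell and 25.9% rose. Of 8 fibroblast markers 6 were measured, of which 5 rose and 1 fell on day 7, against the same shares of all genes. Their summed signal was 2063 to 2314 on day 7, 497.4 to 3074 over all normoxic arrays and 408.9 to 514.3 in hypoxic culture. Of the 6 measured, 2 were detected on all 3 hypoxic arrays, while Col1a1, Col3a1 and Pdgfrb were detected on 0 of 3. A probe was kept only if detected on at least 3 arrays, so Col1a1, Col3a1 and Pdgfrb were kept through normoxic arrays alone. Of 6 macrophage and 4 endothelial markers, 1 each was measured and 0 were detected on all arrays. The part of these marker shifts in the results below was not tested, and in bulk RNA fewer cells of a type and less RNA per cell cannot be told apart.

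Most of the measured genes were lower in normoxic culture. On day 7, 18 of the 28 fell and 3 rose relative to hypoxic culture (limma, adjusted p below 0.05 over all genes), while 33.7% of all genes fell and 25.9% rose. The median change of the 28 was -0.63 on the log2 scale, against -0.11 for all genes. On days 1 to 3, averaged, 16 fell and 3 rose, where 29.2% of all genes fell and 25.6% rose, and on days 4 to 6, 18 fell and 4 rose, where again 29.2% of all genes fell and 25.6% rose. With the array sets as a block, 14 fell and 3 rose on days 4 to 6, where 43.7% of all genes passed in either direction. Pfkm (adjusted p = 0.0702), Pfkfb2 (0.12), Tpi1 (0.122), Slc16a3 (0.0681) and Pdhb (0.0797) did not pass with that block. These comparisons share the 3 hypoxic arrays, and those of days 1 to 6 take single arrays to vary like the triplicates. Their SEs and p-values rest on the spread within the hypoxic and day 7 triplicates and do not measure the spread among days.

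The same 14 genes fell in all 3 comparisons: Slc2a1, Pfkl, Pfkm, Pfkp, Aldoa, Aldoc, Tpi1, Pgk1, Eno2, Pdk1, Pdha1, Pgm1, Pygl and Pygb. How many of all genes fell or rose in all 3 was not counted, so no background share can be given. Repeated calls are not independent, since the comparisons share the 3 hypoxic arrays. The same 14 genes were also those for which all 9 normoxic arrays lay below all 3 hypoxic arrays, which held for 22.2% of all genes. For 3 genes, Pfkfb4, Pdk3 and Pdhb, all 9 normoxic arrays lay above the hypoxic ones, which held for 17.8% of all genes. Pfkfb4 and Pdk3 rose in all 3 comparisons. Pgam1, Ldha and Gys1 passed the test in none.

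**Figure D1:**
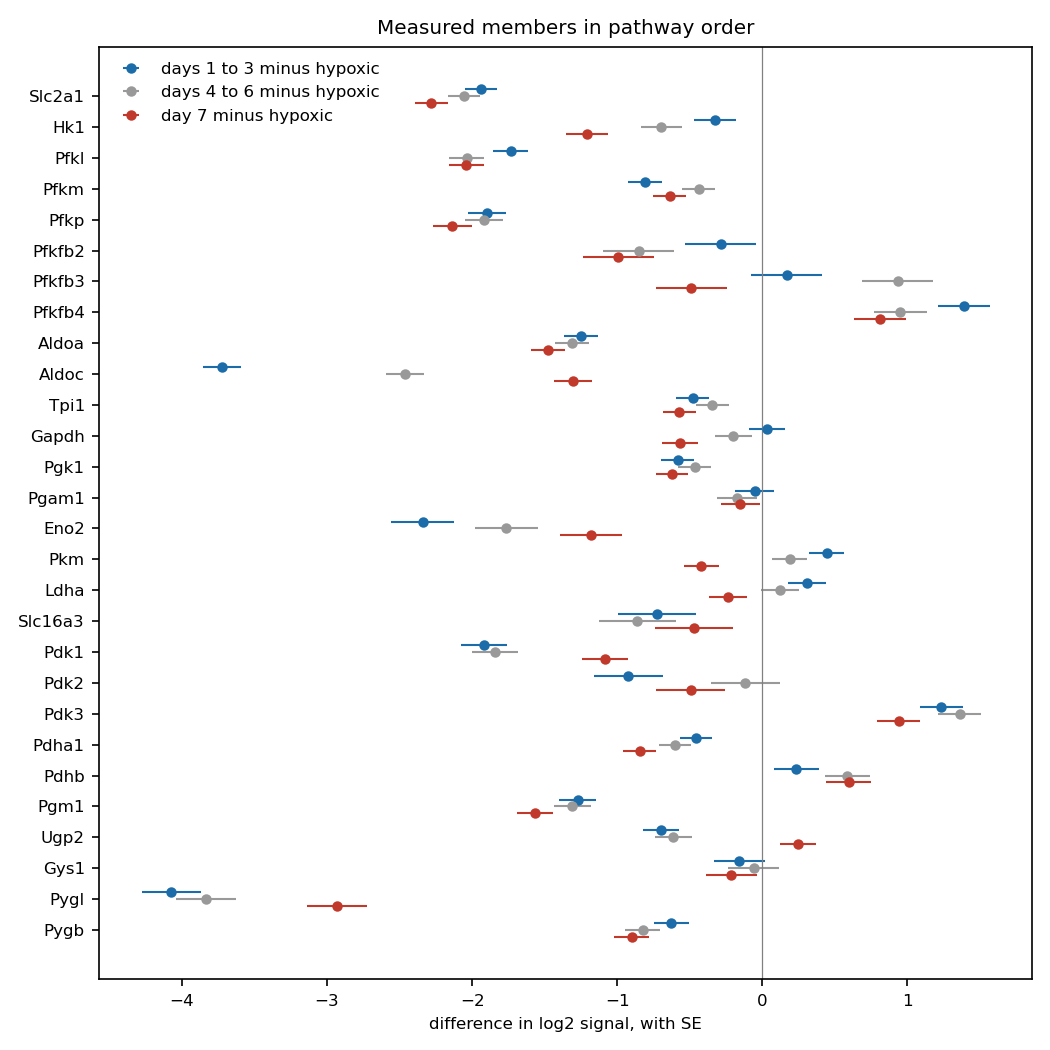
Difference in log2 signal from hypoxic culture, with its SE, for the 28 measured genes in pathway order, for days 1 to 3, days 4 to 6 and day 7. Most points lie left of 0, the farthest being Pygl at -4.07 and Aldoc at -3.72 on days 1 to 3, while Pfkfb4 and Pdk3 lie right of 0 in all 3 comparisons.

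Upstream sequence is shown for the 4 genes with the most negative change on day 7 (Pygl, Slc2a1, Pfkp and Pfkl) and for Pdk1 and Pdk3, related kinases that moved in opposite directions. Each is the 250 bases before a RefSeq transcript start, 5′ to 3′ on the gene's strand, build GRCm38.p6. Capitals mark the HIF core, ACGTG or GCGTG, or its reverse complement CACGT or CACGC.
Pygl, chr12:70227684-70227933, minus strand: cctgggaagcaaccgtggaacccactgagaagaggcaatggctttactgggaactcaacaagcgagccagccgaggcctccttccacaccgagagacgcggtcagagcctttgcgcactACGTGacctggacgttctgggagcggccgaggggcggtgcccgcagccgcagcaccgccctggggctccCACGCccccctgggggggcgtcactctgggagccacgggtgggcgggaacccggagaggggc
Slc2a1, chr4:119108495-119108744, plus strand: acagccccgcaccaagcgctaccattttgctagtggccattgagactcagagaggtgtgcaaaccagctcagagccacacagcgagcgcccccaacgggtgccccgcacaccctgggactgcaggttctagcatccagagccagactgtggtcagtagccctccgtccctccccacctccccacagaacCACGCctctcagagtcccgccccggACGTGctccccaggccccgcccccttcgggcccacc
Pfkp, chr13:6648772-6649021, minus strand: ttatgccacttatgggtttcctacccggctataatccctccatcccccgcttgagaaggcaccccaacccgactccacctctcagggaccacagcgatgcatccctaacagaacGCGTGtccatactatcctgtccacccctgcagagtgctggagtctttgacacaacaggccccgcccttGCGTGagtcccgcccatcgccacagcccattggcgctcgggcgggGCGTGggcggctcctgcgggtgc
Pfkl, chr10:78009808-78010057, minus strand: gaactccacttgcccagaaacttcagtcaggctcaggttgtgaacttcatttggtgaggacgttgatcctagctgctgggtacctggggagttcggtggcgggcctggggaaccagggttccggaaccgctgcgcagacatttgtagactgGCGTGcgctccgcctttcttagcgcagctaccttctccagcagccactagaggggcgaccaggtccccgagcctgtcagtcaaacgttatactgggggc
Pdk1, chr2:71872974-71873223, plus strand: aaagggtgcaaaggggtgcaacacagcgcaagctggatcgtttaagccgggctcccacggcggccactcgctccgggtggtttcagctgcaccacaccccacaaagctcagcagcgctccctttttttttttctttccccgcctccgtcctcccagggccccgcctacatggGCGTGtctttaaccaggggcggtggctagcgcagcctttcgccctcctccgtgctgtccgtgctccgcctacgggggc
Pdk3, chrX:93832151-93832400, minus strand: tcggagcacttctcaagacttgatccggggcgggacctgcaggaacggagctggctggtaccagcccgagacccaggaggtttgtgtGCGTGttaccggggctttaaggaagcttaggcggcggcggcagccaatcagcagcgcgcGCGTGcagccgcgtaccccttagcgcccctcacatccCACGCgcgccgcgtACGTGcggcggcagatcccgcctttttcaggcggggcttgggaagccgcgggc

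The windows of Slc2a1 and Pygl each held 2 matches, that of Pfkp 3 and those of Pfkl and Pdk1 1 each. The window of Pdk3, which rose, held 4. In Slc2a1 the matches began 61 and 36 bases before the transcript start, and in Pygl 131 and 62 bases before it. A second Pdk1 start, at which the window held 0 matches, is not shown. Over all starts, 30 of the 35 listed genes had a match in a window (85.7%). Of 27025 genes with such a start, measured on these arrays or not, 41.5% had one. The share among the measured genes alone was not counted. The median GC content was 60.4% over the listed genes' windows and 52.4% over all windows. The share with a match was 88.9% for the 18 listed genes that fell on day 7 and 90.0% for the other 10 measured listed genes. A match is a run of letters and does not show binding.

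Glucose uptake was represented by Slc2a1, which encodes GLUT1, the main glucose transporter of many cultured and tumour cells. Slc2a1 read 10.99, 10.92 and 10.94 on the day 7 arrays (normalized log2 signal), against 13.29, 13.15 and 13.27 on the hypoxic arrays. It fell by 2.28 on the log2 scale, or 4.86-fold (SE 0.11, limma adjusted p = 1.5e-05). From day 1 to day 6 it read 11.46, 11.04, 11.38, 11.15, 11.37 and 11.01, so that the low level was already present on the day 1 array.

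Hexokinase, which traps glucose in the cell by phosphorylation, was represented by Hk1. Hk1 read 6.29, 6.49 and 6.46 on the day 7 arrays, against 7.74, 7.39 and 7.73 on the hypoxic arrays, and fell 2.31-fold (log2 change -1.21, SE 0.14, adjusted p = 0.000339). Its single arrays read 7.43, 6.81, 7.63, 7.46, 6.73 and 6.59 from day 1 to day 6. Days 1, 3 and 4 thus lay within the hypoxic range, and the difference for days 1 to 3 was -0.33 (adjusted p = 0.0922). That difference passed without day 3 (-0.50, adjusted p = 0.0355) or without hypoxic replicate 2 (-0.44, adjusted p = 0.0402).

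Phosphofructokinase, which commits sugar to glycolysis, is built from a liver-type (Pfkl), a muscle-type (Pfkm) and a platelet-type (Pfkp) subunit. All 3 genes fell, and on all 9 normoxic arrays each lay below its hypoxic values. Pfkl read 10.68, 10.44 and 10.67 on day 7, against 12.64, 12.66 and 12.61 in hypoxic culture, a 4.11-fold fall (log2 change -2.04, SE 0.12, adjusted p = 2.42e-05). Pfkp read 8.63, 8.67 and 8.42 on day 7, against 10.57, 10.81 and 10.75 in hypoxic culture, a 4.39-fold fall (log2 change -2.14, SE 0.13, adjusted p = 2.75e-05), and a second Pfkp probe moved by -2.01.

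The muscle-type gene moved less. Pfkm read 9.46, 9.29 and 9.47 on day 7, against 10.09, 10.01 and 10.04 in hypoxic culture, a 1.56-fold fall (log2 change -0.64, SE 0.12, adjusted p = 0.00238). One of its other probes moved by -0.69, and the dimmest kept one by 0.74 (adjusted p = 0.0587). With the mean over its probes in place of the brightest, Pfkm no longer passed on day 7 (-0.20, adjusted p = 0.328), on days 1 to 3 (adjusted p = 0.0539) or on days 4 to 6 (adjusted p = 0.379), and for days 4 to 6 it also did not pass without day 4 (-0.36, adjusted p = 0.0503).

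The PFKFB enzymes make and remove fructose 2,6-bisphosphate, the activator of phosphofructokinase, and their 3 measured genes took different courses. Pfkfb4 read 7.93, 7.68 and 7.77 on day 7, against 7.27, 7.02 and 6.65 in hypoxic culture, and rose 1.76-fold (log2 change 0.81, SE 0.18, adjusted p = 0.00609). The day 1 array, at 9.04, was its highest, and days 2 to 6 ran from 7.80 to 8.12, so that no normoxic array overlapped the hypoxic ones. With each array shifted to a common median over all probes, the day 7 change was 0.44 and did not pass (adjusted p = 0.0699).

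Pfkfb2 read 7.38, 6.40 and 7.06 on day 7, against 8.04, 7.85 and 7.93 in hypoxic culture, and fell 1.99-fold (log2 change -0.99, SE 0.24, adjusted p = 0.00994). Its day 1 array, at 8.02, lay within the hypoxic range, and its day 6 array, at 6.17, was the lowest. The call for days 4 to 6 (-0.85, adjusted p = 0.0213) was lost without day 6 (-0.39, adjusted p = 0.277) and without hypoxic replicate 1 or 3 (adjusted p = 0.0731 and 0.054). Pfkfb3 was detected on 0 of 3 day 7 arrays and 1 of 3 hypoxic arrays. Its rise for days 4 to 6 (0.93, adjusted p = 0.0148) rested on day 5, which read 7.86 where the other normoxic arrays read 4.52 to 5.79, and without day 5 the difference was 0.10 (adjusted p = 0.792). Without day 4 it was 1.57 (adjusted p = 0.00291). Without hypoxic replicate 2 or 3 that rise did not pass either (adjusted p = 0.0511 and 0.0513).

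Aldolase cleaves fructose bisphosphate into triose phosphates. Aldoa, the most widely expressed form, read 12.80, 12.59 and 12.64 on day 7, against 14.14, 14.19 and 14.13 in hypoxic culture, a 2.78-fold fall (log2 change -1.48, SE 0.12, adjusted p = 6.3e-05). It stayed between 12.56 and 13.15 on days 1 to 6. Aldoc, a form best known from brain, read 9.72, 9.95 and 9.69 on day 7, against 11.00, 11.08 and 11.20 in hypoxic culture, a 2.47-fold fall (log2 change -1.31, SE 0.13, adjusted p = 0.000154).

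Aldoc was far lower in the first days. It read 8.92, 6.15, 7.04, 8.14, 9.29 and 8.47 from day 1 to day 6, lowest on the day 2 array. Its fall on days 1 to 3 was 13.2-fold (log2 change -3.72, SE 0.13, adjusted p = 5.09e-06), with a change of -4.50 without day 1 and of -3.11 without day 2. The arrays of days 1 to 3 had an SD of 1.42, which that SE does not measure. On days 4 to 6 the change was -2.46 on the log2 scale. Aldoa showed no such dip, with changes of -1.25 on days 1 to 3 and -1.31 on days 4 to 6.

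**Figure D2:**
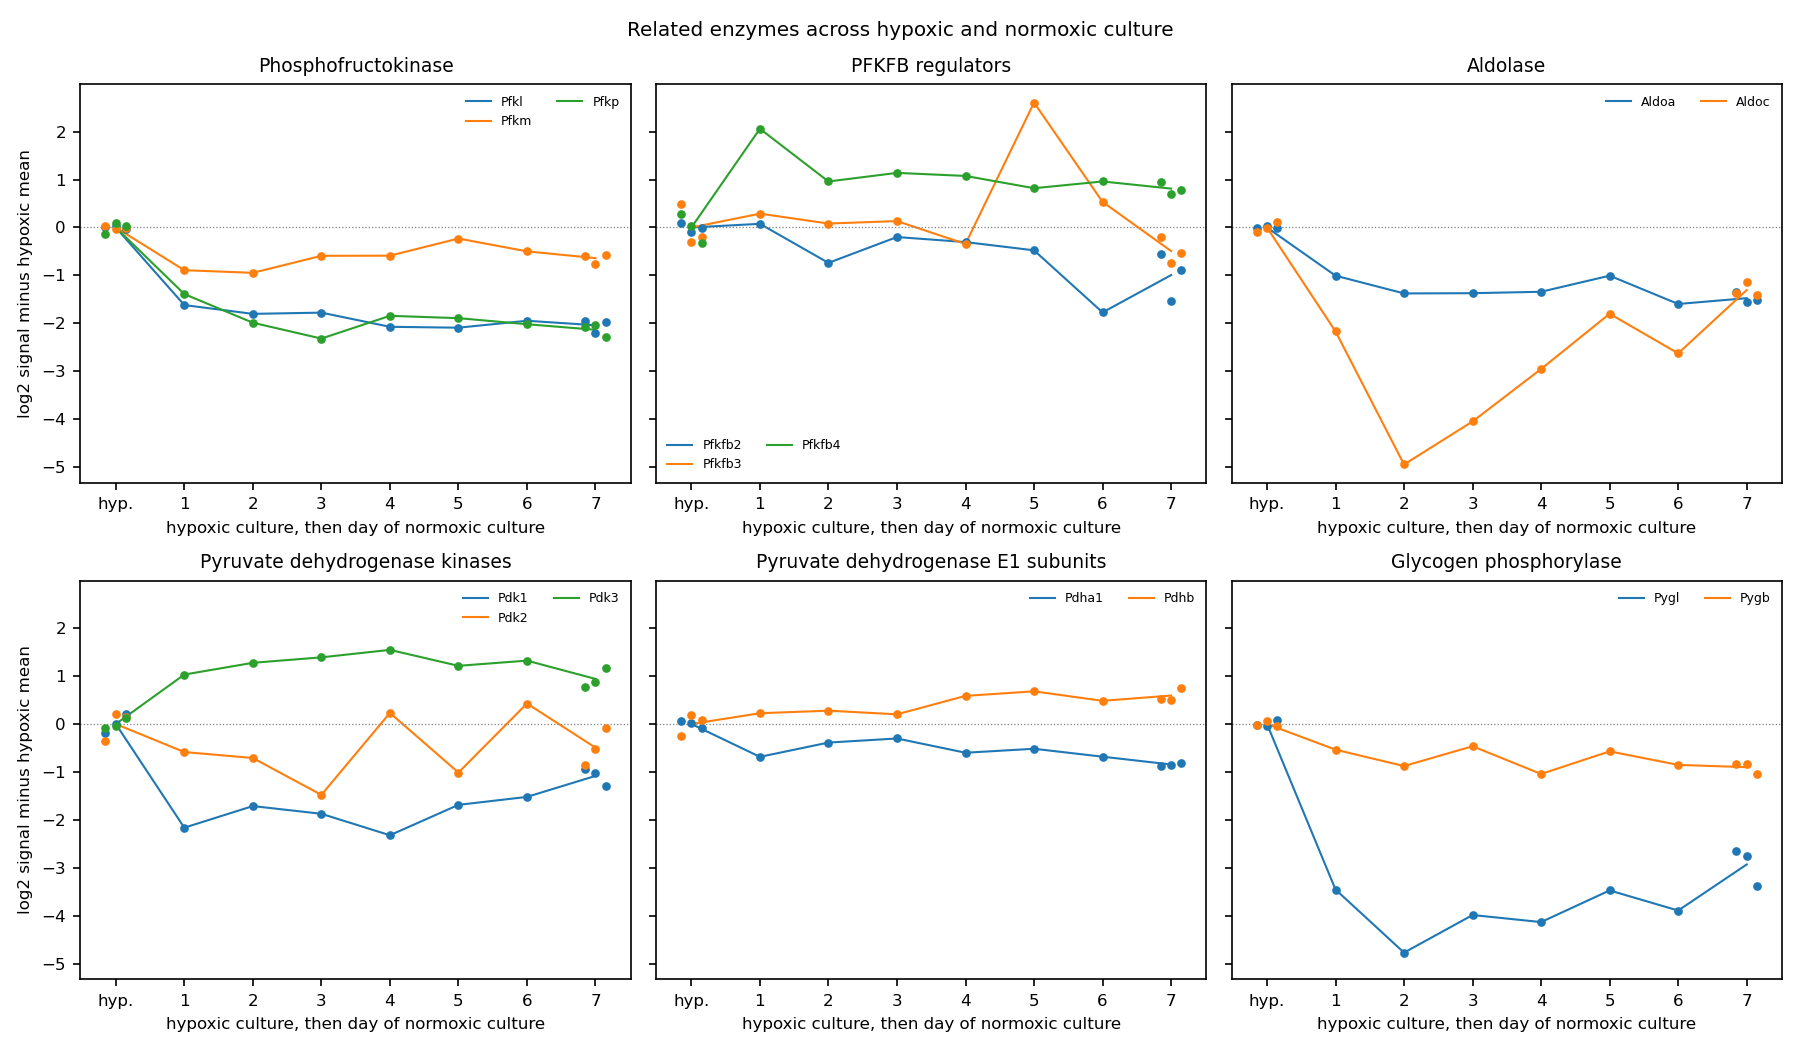
Log2 signal minus the hypoxic mean for 6 families of related enzymes and subunits, by hypoxic culture (hyp.) and day of normoxic culture. Points are arrays and lines join the group means. Aldoc dips on days 1 to 3, Pygl is low on all normoxic days, Pdk1 and Pdk3 part on either side of 0, and the day 5 array of Pfkfb3 stands above the other days.

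Triose phosphate isomerase, which interconverts both products of aldolase, is encoded by Tpi1. Tpi1 read 13.50, 13.48 and 13.62 on day 7, against 14.19, 14.07 and 14.06 in hypoxic culture, a 1.49-fold fall (log2 change -0.57, SE 0.12, adjusted p = 0.00401). Its probes disagreed: a second bright probe moved by -0.69 and a much dimmer one by 0.90 (adjusted p = 0.00513). With the mean over probes the day 7 change was -0.12 and did not pass (adjusted p = 0.395), and for days 4 to 6 the main change of -0.34 (adjusted p = 0.0384) turned to 0.02 (adjusted p = 0.877). That call was also lost without hypoxic replicate 1, 2 or 3, day 4 or day 6 (adjusted p = 0.0522 to 0.097).

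In lower glycolysis, where energy is recovered as ATP and NADH, the first enzyme is encoded by Gapdh. Gapdh, which oxidizes glyceraldehyde 3-phosphate, read 13.12, 12.83 and 13.04 on day 7, against 13.62, 13.51 and 13.56 in hypoxic culture, a 1.48-fold fall (log2 change -0.57, SE 0.13, adjusted p = 0.00625). On days 1 to 3 it read 13.57, 13.68 and 13.53 and did not part from the hypoxic arrays (0.03, adjusted p = 0.851). Gapdh is often used as a constant standard in expression measurements.

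Pgk1, the first ATP-making enzyme of the path, read 13.26, 13.24 and 13.28 on day 7, against 13.81, 13.88 and 13.96 in hypoxic culture, a 1.54-fold fall (log2 change -0.62, SE 0.11, adjusted p = 0.00224). Of its dimmer probes, 1 moved by 0.68 (adjusted p = 0.00359) and the other by -0.53. With the mean over probes the day 7 change of Pgk1 was -0.16 (adjusted p = 0.317). Pgam1, phosphoglycerate mutase, read 10.97, 11.00 and 10.90 on day 7, against 10.91, 11.15 and 11.28 in hypoxic culture, and these ranges overlapped (-0.15, adjusted p = 0.366). The sign of that difference turned with the median set by probes detected throughout (0.11), where it did not pass either.

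Enolase makes phosphoenolpyruvate, and its gamma form, best known from neurons, is encoded by Eno2. Eno2 read 8.15, 8.15 and 7.43 on day 7, against 8.97, 9.23 and 9.06 in hypoxic culture, a 2.26-fold fall (log2 change -1.18, SE 0.21, adjusted p = 0.00247). From day 1 to day 6 it read 6.49, 6.64, 7.11, 7.29, 7.97 and 6.71. The fall on days 1 to 3 was 5.07-fold (log2 change -2.34, SE 0.21, adjusted p = 0.000117), so Eno2, like Aldoc, was lowest early.

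Pkm, pyruvate kinase, was the gene called in opposite directions. It read 14.30, 14.33 and 14.38 on days 1, 2 and 3 and rose by 0.44 (SE 0.12, adjusted p = 0.0161), and it read 13.53, 13.32 and 13.56 on day 7, against 13.92, 13.87 and 13.88 in hypoxic culture, where it fell by 0.42 (SE 0.12, adjusted p = 0.0183). The day 4, 5 and 6 arrays read 14.24, 14.28 and 13.71. Both calls were near the threshold: without hypoxic replicate 3 the early value was 0.44 (adjusted p = 0.0511) and the day 7 value -0.43 (adjusted p = 0.0521), and without day 7 replicate 2 the day 7 value was -0.35 (adjusted p = 0.0564). With arrays shifted to a common median over all probes neither passed (early adjusted p = 0.114, day 7 adjusted p = 0.116), and over probes detected on all arrays the day 7 value turned to 0.08 (adjusted p = 0.586).

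The scaling of the arrays bears on these small day 7 changes. The median of all genes on day 7 was -0.11 in the main processing, -0.31 with arrays shifted to a common median over all probes and 0.09 when only probes detected throughout set the median. Of the genes called, 43.5%, 31.8% and 52.4% were higher on day 7 in that order. The median of the 28 genes was -0.63, -0.80 and -0.41 under the same 3 scalings. Under the last scaling Tpi1 (-0.09), Gapdh (-0.04) and Pgk1 (-0.16) did not pass on day 7, and Gapdh did not pass under the shift over all probes either (adjusted p = 0.0507).

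**Figure D3:**
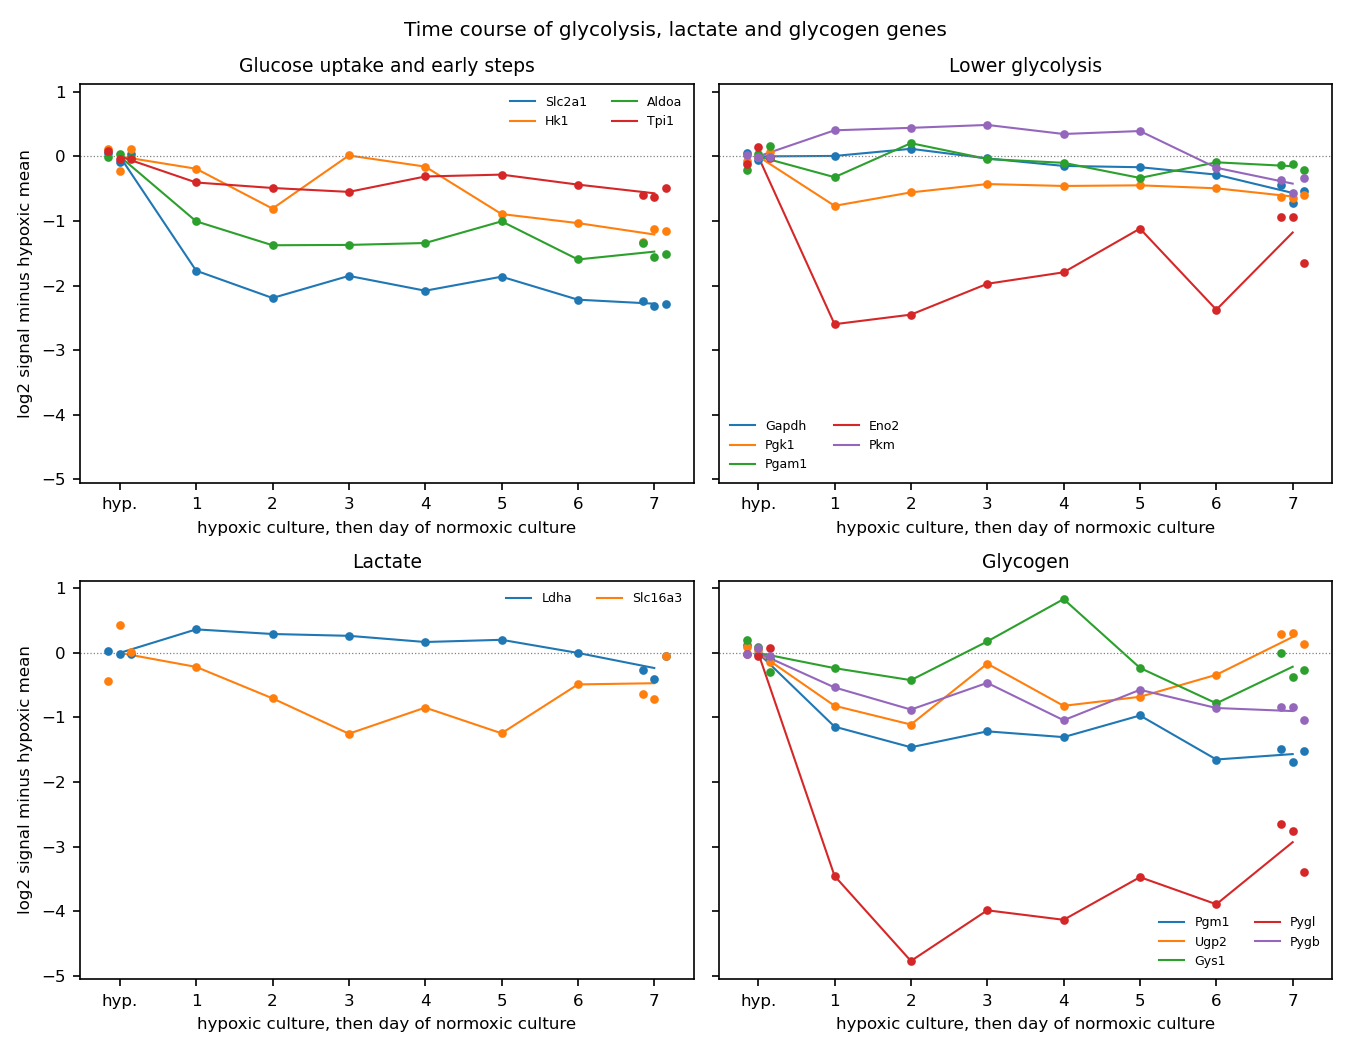
Log2 signal minus the hypoxic mean for genes of glucose uptake and early steps, lower glycolysis, lactate and glycogen, by hypoxic culture (hyp.) and day of normoxic culture. Points are arrays and lines join the group means. Slc2a1, Aldoa, Pgm1 and Pygl are low from day 1, whereas Pkm lies above 0 until day 5 and below it on day 7.

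Neither measured lactate gene passed the test on day 7 in the main processing. Ldha, the lactate dehydrogenase subunit that favours lactate formation, read 13.83, 13.69 and 14.05 on day 7, against 14.12, 14.08 and 14.07 in hypoxic culture, a difference of -0.23 (SE 0.13, adjusted p = 0.163) that turned to 0.21 (adjusted p = 0.176) with the median set by probes detected throughout. On days 1 to 5 it read 14.26 to 14.46, above all hypoxic arrays, but the difference for days 1 to 3 was 0.31 (adjusted p = 0.0846) and did not pass. Ldha was the brightest of the 28 genes, with 0.224% of named probes brighter.

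Slc16a3 encodes the lactate exporter MCT4. It read 6.38, 6.31 and 6.98 on day 7, against 6.59, 7.46 and 7.03 in hypoxic culture, and the ranges overlapped (-0.47, SE 0.27, adjusted p = 0.169). With arrays shifted to a common median over all probes the day 7 difference passed (-0.79, adjusted p = 0.0179). It fell on days 4 to 6 (-0.86, adjusted p = 0.0287), but not without hypoxic replicate 2 (-0.64, adjusted p = 0.0854), hypoxic replicate 3 (-0.86, adjusted p = 0.0704) or day 5 (-0.67, adjusted p = 0.0993). On days 1 to 3 its difference of -0.72 (adjusted p = 0.0531) passed without hypoxic replicate 1 (-0.94, adjusted p = 0.0278) or day 1 (-0.98, adjusted p = 0.0285).

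At the entry of pyruvate into mitochondrial oxidation, related genes moved apart. Pdk1, a kinase that inactivates pyruvate dehydrogenase, read 8.57, 8.48 and 8.21 on day 7, against 9.30, 9.50 and 9.71 in hypoxic culture, a 2.12-fold fall (log2 change -1.08, SE 0.16, adjusted p = 0.000891). From day 1 to day 6 it read 7.34, 7.79, 7.63, 7.18, 7.81 and 7.98, and the fall on days 1 to 3 was 3.78-fold (log2 change -1.92, SE 0.16, adjusted p = 7.82e-05). Pdk1 was thus lower on every day 1 to 6 array than on any day 7 array.

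Pdk3, a kinase of the same family, went the other way. It read 9.02, 9.14 and 9.44 on day 7, against 8.19, 8.21 and 8.38 in hypoxic culture, a 1.92-fold rise (log2 change 0.94, SE 0.15, adjusted p = 0.0012). Its single arrays read 9.29, 9.54, 9.65, 9.81, 9.47 and 9.58 from day 1 to day 6, and no normoxic array reached down to the hypoxic ones. Pdk2 was detected on 1 of 3 day 7 arrays and on 3 of 3 hypoxic arrays. It fell on days 1 to 3 (-0.93, SE 0.24, adjusted p = 0.0134), but not without day 3 (-0.65, adjusted p = 0.0791), and its day 7 difference of -0.49 (adjusted p = 0.113) passed without day 7 replicate 3 (-0.69, adjusted p = 0.0311).

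Pdha1 and Pdhb encode the alpha and beta subunits of the first enzyme of the pyruvate dehydrogenase complex. Pdha1 read 11.36, 11.40 and 11.44 on day 7, against 12.30, 12.26 and 12.17 in hypoxic culture, a 1.80-fold fall (log2 change -0.85, SE 0.11, adjusted p = 0.000531). Its call for days 1 to 3 (-0.46, adjusted p = 0.0105) was lost without day 1 (-0.34, adjusted p = 0.0516) and under both shifts to a common median (adjusted p = 0.0982 and 0.134). Pdhb read 10.63, 10.61 and 10.84 on day 7, against 9.84, 10.28 and 10.17 in hypoxic culture, a 1.51-fold rise (log2 change 0.59, SE 0.15, adjusted p = 0.0127).

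The other probes of Pdhb moved by 1.21 and 0.06 on day 7. With arrays shifted to a common median over all probes the Pdhb change was 0.33 and did not pass (adjusted p = 0.0972). Its difference on days 1 to 3 was 0.23 (adjusted p = 0.24).

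Among the 28 genes, the shift with the widest fold was in glycogen breakdown. Pygl, the liver form of glycogen phosphorylase, read 7.66, 7.54 and 6.91 on day 7, against 10.28, 10.25 and 10.38 in hypoxic culture, a 7.63-fold fall (log2 change -2.93, SE 0.21, adjusted p = 3.95e-05). From day 1 to day 6 it read 6.85, 5.53, 6.32, 6.17, 6.83 and 6.41, and the fall on days 1 to 3 was 16.8-fold (log2 change -4.07, SE 0.21, adjusted p = 1.11e-05). A second, dimmer Pygl probe, also detected on all 12 arrays, changed by less: -2.43 on day 7, -2.24 on days 1 to 3 and -2.21 on days 4 to 6. The deeper low of the first days was thus seen at the brightest probe and not at the other. That other probe averaged 5.95 on day 7 and read 5.62 on its lowest array. It was thus near background, which limits how deep a low it could show.

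Pygb, the brain form, read 8.58, 8.58 and 8.38 on day 7, against 9.40, 9.48 and 9.36 in hypoxic culture, a 1.87-fold fall (log2 change -0.90, SE 0.12, adjusted p = 0.000564). Pgm1, phosphoglucomutase, which joins glycogen to glycolysis by interconverting glucose phosphates, read 11.88, 11.67 and 11.85 on day 7, against 13.48, 13.34 and 13.28 in hypoxic culture. That was a 2.96-fold fall (log2 change -1.57, SE 0.12, adjusted p = 6.42e-05), and a second Pgm1 probe moved by -1.58.

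On the side of synthesis, Ugp2 makes UDP-glucose, the sugar donor. Ugp2 read 9.35, 9.37 and 9.19 on day 7, against 9.15, 9.10 and 8.92 in hypoxic culture, with every day 7 array at the top but a difference of 0.25 that did not pass (adjusted p = 0.13) and was -0.13 (adjusted p = 0.514) with arrays shifted to a common median over all probes. From day 1 to day 6 it read 8.24, 7.95, 8.89, 8.24, 8.38 and 8.72, and it fell on days 1 to 3 (-0.70, SE 0.13, adjusted p = 0.00267) and on days 4 to 6 (-0.61, adjusted p = 0.00508). Gys1, the muscle form of glycogen synthase, was not well above background on any day 7 array and was detected on 2 of 3 hypoxic arrays, so no fold is given.

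Within normoxic culture, the change per day was fitted to the 9 arrays of days 1 to 7. Of the 28 genes 5 fell and 4 rose with time, where 19.0% of all genes fell and 16.5% rose. Those that fell were Hk1 (-0.17 per day on the log2 scale, adjusted p = 0.0166), Pkm (-0.16, adjusted p = 0.00598), Pfkfb4 (-0.13, adjusted p = 0.0342), Gapdh (-0.11, adjusted p = 0.0113) and Ldha (-0.10, adjusted p = 0.0171). Those that rose were Aldoc (0.40, adjusted p = 0.0316), Eno2 (0.21, adjusted p = 0.0245), Ugp2 (0.19, adjusted p = 0.0116) and Pdk1 (0.17, adjusted p = 0.014). Aldoc and Ugp2 were lowest on day 2, Eno2 on day 1 and Pdk1 on day 4. The split turned with the scaling: 10 fell and 2 rose with arrays shifted to a common median over all probes, and 2 fell and 7 rose with the median set by probes detected throughout. Under the last, Gapdh (-0.02, adjusted p = 0.604), Pkm (-0.05, adjusted p = 0.137) and Ldha (-0.01, adjusted p = 0.905) did not pass. Of all slopes called, 46.5%, 24.6% and 56.2% were positive in the main processing and under these 2 scalings.

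Several slopes rested on single arrays. Pfkfb4 did not pass without day 1 (-0.05, adjusted p = 0.279) or without day 7 replicate 2 or 3 (adjusted p = 0.0771 and 0.0594). Aldoc did not pass without day 2 (0.27, adjusted p = 0.108), day 3 (0.35, adjusted p = 0.0647) or any one of the day 7 replicates (adjusted p = 0.0645 to 0.0821). Eno2 did not pass without day 1 (adjusted p = 0.0911), day 2 (adjusted p = 0.0699) or day 7 replicate 1 or 2 (adjusted p = 0.0665 and 0.0721), nor Ldha without day 7 replicate 2 (adjusted p = 0.0533). Pygl, at 0.19 per day (adjusted p = 0.0616), passed without day 1 (0.32, adjusted p = 0.00509). With the 2 array sets as a block, Hk1, Pkm, Ldha, Pdk1 and Ugp2 passed, as did 20.2% of all genes.

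Whether related enzymes changed unequally was tested on the difference of their log2 signals within each array, 9 normoxic against 3 hypoxic arrays, over 10 pairs. The exact permutation test, 2-sided, can give no p below 0.00909, and 5 pairs reached it (adjusted p = 0.0182). The change of Pygl minus that of Pygb was -2.83 on the log2 scale, and the change of Pdk1 minus that of Pdk3 was -2.79. For Pdk1 and Pdk3 the smallest p followed from their lack of overlap in opposite directions, so the test adds nothing to that. The same difference was -1.31 for Pfkl against Pfkm, 1.35 for Pfkm against Pfkp and 1.69 for Pdk3 against Pdk2, which was detected on 7 of 12 arrays. With only probes detected on all arrays 6 pairs could be tested, of which 4 passed, and both pairs with Pdk2 dropped out.

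The change of Pdk1 differed from that of Pdk2 by -1.10 (exact p = 0.0182, adjusted p = 0.0303). Pfkl and Pfkp differed in change by 0.05 (exact p = 0.809), with normoxic arrays from -0.23 to 0.54 around the hypoxic mean. The pair Aldoc and Aldoa differed by -1.15 over all 9 arrays, without passing (adjusted p = 0.205), and by 0.17 on day 7 alone. Neither Pfkfb4 against Pfkfb3 (0.85, adjusted p = 0.313) nor Pfkfb3 against Pfkfb2 (0.91, adjusted p = 0.104) passed. Pfkfb3 was detected on 4 of 12 arrays, and nothing is read from its pairs. The 9 normoxic arrays are of different days and are not replicates of 1 condition.

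Of 70 further genes of the same pathways, 36 were measured, of which 16 fell and 7 rose on day 7, where 33.7% of all genes fell and 25.9% rose. On days 1 to 3, 13 fell and 4 rose, and on days 4 to 6, 17 fell and 5 rose, where 29.2% of all genes fell and 25.6% rose in each. The falls include Slc2a4, Pdk4 and Ppp1r3c, which were detected on the 3 hypoxic arrays only. A probe was kept if detected on at least 3 arrays, so these were kept through hypoxic culture alone. Their being lower in normoxic culture followed from that filter, and nothing is drawn from it. The shares of all genes rest on the same filter. In glycogen metabolism 8 of 13 fell on day 7 and 0 rose, against the same shares of all genes. Stbd1, which binds glycogen and links it to membranes, read 10.38, 10.35 and 9.89 on day 7, against 12.97, 13.02 and 13.23 in hypoxic culture, a 7.29-fold fall (log2 change -2.87, SE 0.17, adjusted p = 2.41e-05). Gaa, the lysosomal enzyme that degrades glycogen, fell 3.81-fold (adjusted p = 3.55e-05), and Gyg, glycogenin, the primer of glycogen synthesis, fell 2.46-fold (adjusted p = 0.00165).

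Subunits that bring protein phosphatase 1 to glycogen were lower as well. Ppp1r3f fell by 1.79 on the log2 scale and was detected on 2 of 3 day 7 arrays, and Ppp1r3b fell by 1.08 and was detected on 1. Ppp1r3c was detected on the 3 hypoxic arrays only, so its lower day 7 signal followed from the filter. It was at least 2.11-fold lower on day 7 than in hypoxic culture. Such bounds set the mean of the hypoxic arrays against the lowest signal among detected probes on each day 7 array, or the probe's own signal where that was higher.

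Glucose transporters split. Slc2a6, a transporter of lysosomal membranes, read 9.43, 9.22 and 9.13 on day 7, against 6.01, 6.08 and 6.28 in hypoxic culture, an 8.80-fold rise (log2 change 3.14, SE 0.14, adjusted p = 1.4e-05). Slc2a8 fell by 2.09 (adjusted p = 0.000471, detected on 2 of 3 day 7 arrays). Slc2a4, the insulin-responsive transporter GLUT4, was at least 2.05-fold lower on day 7, but was kept through the 3 hypoxic arrays alone. The arrestin-like genes Arrdc4 and Txnip, which restrain glucose uptake and are induced by glucose, rose by 2.73 (adjusted p = 2.2e-05) and 1.35 (adjusted p = 0.00193).

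Among further enzymes, Eno3, the muscle enolase, read 10.72, 10.67 and 10.40 on day 7, against 7.44, 7.71 and 8.10 in hypoxic culture, a 7.21-fold rise (log2 change 2.85, SE 0.19, adjusted p = 3.55e-05). Its change was thus opposite in sign to that of Eno2, and the difference between both was not tested. Fbp2, a fructose bisphosphatase of gluconeogenesis, rose by 1.19 (adjusted p = 0.0102).

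At pyruvate entry, 5 of 7 further genes fell on day 7 and 1 rose, where 33.7% of all genes fell. Pdk4 is the family's kinase best known from fasting. It was at least 2.65-fold lower on day 7, but was kept through the 3 hypoxic arrays alone. Pcx, pyruvate carboxylase, was at least 2.15-fold lower on day 7 than in hypoxic culture. Pdpr, a regulator of the phosphatase that reactivates the complex, fell by 2.31 (adjusted p = 0.000311, detected on 2 of 3 day 7 arrays). Dlat, the acetyltransferase of the complex, fell by 1.21 (adjusted p = 0.0182), but not without hypoxic replicate 1 (-1.10, adjusted p = 0.0709), hypoxic replicate 2 (-1.19, adjusted p = 0.053) or day 7 replicate 2 (-1.12, adjusted p = 0.0553).

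**Figure D4:**
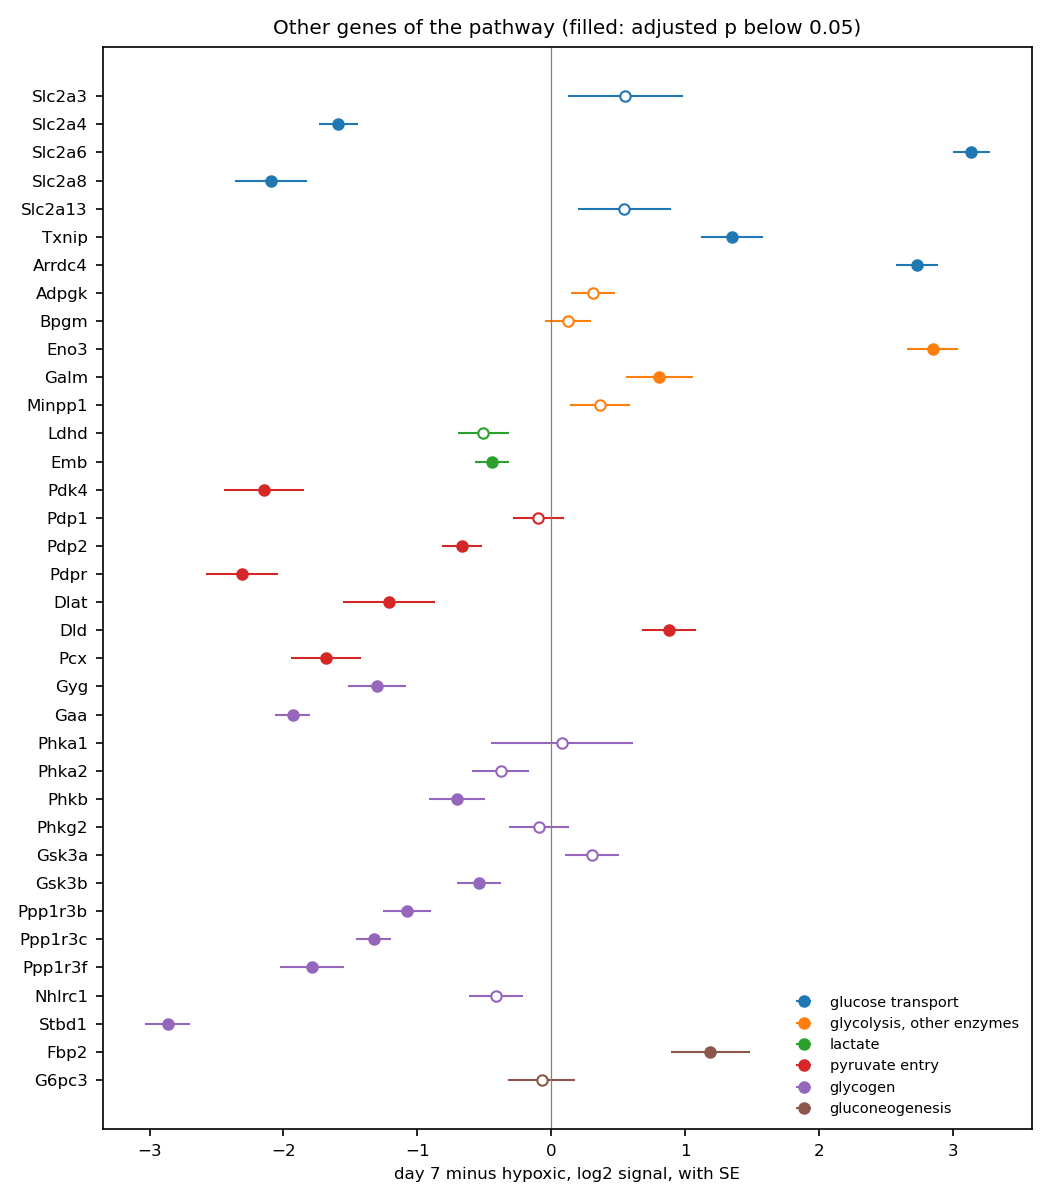
Day 7 minus hypoxic difference in log2 signal, with its SE, for the 36 further genes of the pathways, coloured by function, with filled points past an adjusted p of 0.05. Slc2a6, Eno3 and Arrdc4 lie farthest right and Stbd1, Pdpr, Pdk4 and Slc2a8 farthest left.

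Of 10 regulators of these pathways 9 were measured, of which 4 fell and 2 rose on day 7, against 33.7% and 25.9% of all genes. Mlxipl had no kept probe and was not measured. Hif1a, the oxygen-regulated HIF subunit, whose protein level these arrays do not show, averaged 7.80 ± 0.20 on day 7 and 8.03 ± 0.03 in hypoxic culture (SD, n = 3 each, limma log2 change -0.23, adjusted p = 0.191). It passed with arrays shifted to a common median over all probes (-0.61, adjusted p = 0.0106). The HIF prolyl hydroxylases Egln3 and Egln1, which mark Hif1a and Epas1 protein for breakdown, fell by 1.21 (adjusted p = 0.000267) and 2.01 (adjusted p = 0.00386, detected on 1 of 3 day 7 arrays).

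Arnt rose by 2.32 at its brightest probe (adjusted p = 0.000528), but a second probe detected on all arrays moved by -0.75 (adjusted p = 0.00142), so its direction is uncertain. Vhl, which targets Hif1a and Epas1 protein for degradation, rose by 0.73 (adjusted p = 0.0197). It did not pass without hypoxic replicate 1 (0.73, adjusted p = 0.0599) or 2 (0.66, adjusted p = 0.0658), nor with arrays shifted to a common median over all probes (0.34, adjusted p = 0.199). Mlxip, a sugar-sensing factor, fell by 1.44 (adjusted p = 0.000625). Myc fell by 0.95 (adjusted p = 0.0259), but not without hypoxic replicate 1 (-0.84, adjusted p = 0.0923), hypoxic replicate 3 (-0.73, adjusted p = 0.0808) or day 7 replicate 1 (-0.78, adjusted p = 0.0754). Epas1 was detected on 2 of 3 day 7 arrays and 0 of 3 hypoxic arrays and did not pass (adjusted p = 0.109) in the main processing. Its difference was 1.35, and 0.54 (adjusted p = 0.108) without day 7 replicate 3. Epas1 passed without day 7 replicate 1 (1.93, adjusted p = 0.0253), without background correction (0.70, adjusted p = 0.0332) and with the median set by probes detected throughout (1.60, adjusted p = 0.0382). Mlx did not pass (0.40, adjusted p = 0.161).

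Within each array set, all 21 genes called on day 7 kept their direction. That could not have come out otherwise, since their day 7 arrays did not overlap their hypoxic arrays, and nothing is drawn from it. Set a has 2 day 7 arrays and 1 hypoxic array, and set b 1 day 7 array and 2 hypoxic arrays, so that 1 residual degree of freedom is left in each and a single array stands for a group. Of the 28 genes 10 passed in set a, where 25.3% of all genes did, and 14 in set b, where 43.7% did. Pygl, for example, changed by -3.15 within set a and by -2.61 within set b, and Slc2a1 by -2.34 and -2.22.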

How the data were processed

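Total RNA was extracted and biotin-labelled cRNA was hybridised, per the labels' protocols; scanner software and bead summarization are not given in the sources used here. Deposited was a table with a log2 signal, neither background-corrected nor normalized as its values show, and a detection p-value for each of 45281 probes and 12 arrays. The deposited p-value columns carried no sample name, per the file headers. The column beside a signal ordered it in 0 of 12 cases, while 1 other column ordered each exactly and was used. The authors' processed table, in log2 per its values, held signals in 6 columns and p-values in 6, and 1 signal column held its own array. It served to infer the array sets and to check the processing.

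Signals were processed with neqc of limma 3.58.1 in R 4.3.3 (offset 16, quantile normalization). The result differed from the processed table by at most 0.0236 on the 6 arrays whose signals that table holds, and the other arrays could not be compared. Probes with a detection p-value below 0.05 on at least 3 arrays were kept (18561), with symbols from the platform annotation: 34885 probes had 1 symbol, 18 several and 10378 none here, and 0 symbols changed on update. Each of 10365 genes was read at its brightest kept probe. The 32 listed genes with a named probe had 58 such probes, 42 of them kept, and 10 genes had more than 1. limma models with a mean for each of 8 groups were fitted to all arrays, with contrasts for day 7, days 1 to 3 and days 4 to 6 against hypoxic culture, and a slope per day to the 9 normoxic arrays, 2-sided, with Benjamini-Hochberg adjustment over all genes. The scripts were tested on simulated data. SEs of the contrasts were 0.11 to 0.27 for the 28 genes, and the number of arrays limits precision. Every listed gene and regulator was named, and further pathway genes only where they passed on day 7 with at least a 2-fold change. Genes and lists were chosen with earlier results of these data known. Alternatives were background correction, scaling, probe filter, mean over probes, array sets, left-out arrays and a replicate block. Same-numbered day 7 and hypoxic arrays deviated with correlations of 0.03, -0.00 and 0.06, so that the numbers do not pair them.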

Additional observations from a re-analysis of the deposited data

How the results depend on the processing

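The number of genes called, 21 of 28 on day 7, 19 on days 1 to 3 and 22 on days 4 to 6, stayed within 1.5 times under other background correction, scaling, probe filters, the mean over probes and left-out arrays (20 to 22, 18 to 20 and 18 to 20 without single arrays). Within set a alone, which has fewer arrays, it was 10 on day 7 and 12 on days 4 to 6, the last chosen after seeing the data. The 9 slopes called became 5 with array sets as a block, where 20.2% of all genes were called. Without single arrays they were 5 to 10, and 5 without day 7 replicate 2. The 6 unequal pairs became 0 without any 1 hypoxic array. There 2 against 9 arrays cannot give an exact p below 0.0364, and pairs that reached it had adjusted p = 0.0606 to 0.0727. Without any 1 normoxic array the pairs were 6 to 7, the seventh without day 5 being a pair with the mostly undetected Pfkfb3. Among values that passed in either processing, directions reversed for Pkm on day 7 (0.0833) and for the Tpi1 slope (0.0904, adjusted p = 0.0339, against -0.02) with the median set by probes detected throughout, and for Tpi1 on days 4 to 6 (0.0229) with the mean over probes; apart from the scaling and averaging themselves, the cause was not tested. Replicate numbers do not pair the arrays. With a replicate block 23 genes were called on day 7 (Pfkfb3 and Pdk2 added), 15 on days 1 to 3 and 17 on days 4 to 6. Of all genes, 57.9%, 45.5% and 45.6% were called with that block, in that order. For slopes and enzyme pairs no such block could be fitted, since most days have 1 array. The dim genes Pfkfb3, Pdk2 and Gys1 are limited by signal over background.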
